A study of Mus musculus with 8 samples.

Results

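The GIMAP genes (GTPases of immunity-associated proteins) were followed in mouse splenic cDC1, the type 1 conventional dendritic cells that present antigen to CD8 T cells. The family was taken by symbol from the platform annotation of the arrays: Gimap1, Gimap3, Gimap4, Gimap5, Gimap6, Gimap7, Gimap8 and Gimap9, which are 8 of the 19505 genes named there. Each of the 8 had 1 probe set of its own. Naive wild-type C57BL/6 mice gave the cells, and 4 arrays were run on those sorted as TMRM/MG-high and 4 on those sorted as TMRM/MG-low. TMRM is a dye taken up by mitochondria in step with the potential across their inner membrane. What MG stands for, the age of the mice and whether animals were pooled are not in the labels. The family was selected on the log2 signals of this same contrast, in which the value of Gimap3 was already known, so its differences between the fractions are given as a description and carry no test of their own.

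GIMAP proteins bind GTP through an AIG1 domain, and several of them sit on membranes of the endoplasmic reticulum, lysosomes or mitochondria. They are best known from lymphocytes, where members are needed for the survival of T, B and NK cells. In mice the genes lie side by side in a single cluster on chromosome 6, in the order Gimap8, Gimap9, Gimap4, Gimap6, Gimap7, Gimap1, Gimap5, Gimap3. Close relatives may share probes, and the RefSeq gene table lists Gimap5 as an older name of Gimap3, so values of neighbouring members are uncertain to that extent.

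The promoters of 4 members are shown because they differ in how far apart the fractions were: Gimap3, Gimap4 and Gimap5 were the members whose high arrays all lay below the low arrays, and Gimap1 had the smallest difference. The windows run from 250 bases before to 50 bases after the RefSeq start in GRCm38.p6, 5′ to 3′ on the gene's own strand: chr6:48770802-48771101 (minus strand) for Gimap3, chr6:48684328-48684627 (plus) for Gimap4, chr6:48745947-48746246 (plus) for Gimap5 and chr6:48738797-48739096 (plus) for Gimap1. Capitals mark matches, on either strand, to an ETS core (GGAAGT), a RUNX core (TGTGGT) or an Ikaros core (TGGGAA), factors that act in many blood cells.
Gimap3: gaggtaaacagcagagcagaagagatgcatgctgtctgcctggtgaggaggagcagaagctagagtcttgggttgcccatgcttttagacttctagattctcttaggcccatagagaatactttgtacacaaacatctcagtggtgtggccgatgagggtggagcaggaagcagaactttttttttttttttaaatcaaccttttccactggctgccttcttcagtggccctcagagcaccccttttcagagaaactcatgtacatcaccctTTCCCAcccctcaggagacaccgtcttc
Gimap4: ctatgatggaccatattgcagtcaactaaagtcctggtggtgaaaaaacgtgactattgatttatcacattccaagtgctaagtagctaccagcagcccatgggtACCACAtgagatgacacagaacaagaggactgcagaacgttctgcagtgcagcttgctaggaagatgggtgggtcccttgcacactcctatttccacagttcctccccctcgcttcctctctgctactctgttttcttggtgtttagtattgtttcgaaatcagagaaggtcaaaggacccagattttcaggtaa
Gimap5: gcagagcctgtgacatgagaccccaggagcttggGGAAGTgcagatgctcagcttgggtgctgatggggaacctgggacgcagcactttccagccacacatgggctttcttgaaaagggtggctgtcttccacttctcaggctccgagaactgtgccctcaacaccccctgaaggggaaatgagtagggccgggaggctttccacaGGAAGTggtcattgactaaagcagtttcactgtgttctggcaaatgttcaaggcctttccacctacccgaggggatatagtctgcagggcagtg
Gimap1: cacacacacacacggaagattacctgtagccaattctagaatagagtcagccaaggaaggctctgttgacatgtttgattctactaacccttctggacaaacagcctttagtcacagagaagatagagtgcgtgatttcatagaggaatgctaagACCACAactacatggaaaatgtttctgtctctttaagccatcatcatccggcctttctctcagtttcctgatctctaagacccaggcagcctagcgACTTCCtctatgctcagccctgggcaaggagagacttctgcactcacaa
The Gimap3 window held 1 Ikaros core. The Gimap4 window held 1 RUNX core, beginning 145 bases before the start, and the Gimap5 window held 2 ETS cores, the nearer of which began 44 bases before it. No motif was found in all of these 3. The Gimap1 window held 1 RUNX and 1 ETS core. Over all 9 windows of the 8 members (Gimap8 has 2), 4 held the ETS core, 3 the RUNX core and 1 the Ikaros core, and the shares among the 32851 promoter windows of the same length were 23.8%, 16.8% and 25.6%. These are matches of letters, and no binding was measured.

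In the TMRM/MG-high fraction all 8 GIMAP genes had a lower mean log2 signal than in the TMRM/MG-low fraction, with a median difference of -0.32 against 0.0093 over all 22206 probe sets. The differences ran from -1.08 for Gimap3 to -0.05 for Gimap1. Gimap3, Gimap4 and Gimap5 passed the threshold of the fit over all probe sets (limma, Benjamini-Hochberg adjusted p below 0.05), which 2.96% of all probe sets passed in that direction, 5.28% in the other and 8.25% in either; no member was called higher. The same 3 members had no overlap between the fractions, as did 6.37% of all probe sets in that direction and 9.7% in the other. Since the members were chosen with this contrast known, the counts are not read further. In sorted bulk samples, fewer cells of a type and less RNA per cell cannot be told apart.

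Gimap3, a close relative of Gimap5 whose protein is found on mitochondria and the endoplasmic reticulum, was at 9.15, 8.45, 7.98 and 8.67 in low replicates 1 to 4. It was at 7.16, 7.79, 7.16 and 7.80 in high replicates 1 to 4. The highest high array lay just under the lowest low array, low replicate 3, and the low arrays themselves spread over more than 1 log2 unit. The difference was -1.08 (SE 0.23) on the log2 scale.

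Gimap4, which modulates the death of T cells, was at 11.0002, 10.91, 10.56 and 11.01 in the low arrays and at 10.37, 10.38, 10.16 and 10.50 in the high arrays. Replicate 3 was the lowest of its fraction on both sides, and the gap between low replicate 3 and high replicate 4 was narrow. The difference was -0.52 (SE 0.11), or 1.43-fold.

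Gimap5, a lysosomal member whose loss depletes T and NK cells, was at 7.81, 8.06, 7.97 and 7.99 in the low arrays and at 7.45, 7.71, 7.60 and 7.66 in the high arrays. It had the narrowest spread of the 3 (SD 0.11 in each fraction, n = 4), and replicate 1 was lowest in both fractions. The difference was -0.35 (SE 0.090).

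Gimap6, which binds an ATG8-type autophagy protein, was at 10.42, 10.44, 9.84 and 9.83 in the low arrays and at 9.45, 9.52, 9.53 and 9.98 in the high arrays. High replicate 4 lay above low replicates 3 and 4, so the fractions overlapped. The difference was -0.51 (SE 0.17), close in size to that of Gimap4 but with a wider spread.

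The other 4 members overlapped between the fractions. Gimap9 ranged from 7.22 to 7.73 in the low and from 7.0008 to 7.28 in the high arrays (-0.29, SE 0.13). Gimap7, a GTPase that can activate other members, ranged from 7.68 to 8.15 and from 7.34 to 7.81 (-0.17, SE 0.13). Gimap8, a member with several GTPase domains, ranged from 8.67 to 8.80 and from 8.39 to 8.83 (-0.12, SE 0.10). Gimap1, which mature T and B cells need, ranged from 7.45 to 7.89 and from 7.38 to 7.77 (-0.05, SE 0.11). For Gimap1, Gimap7 and Gimap8 the difference was smaller than the pooled SD within fractions (0.17, 0.22 and 0.14).

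**Figure D1:**
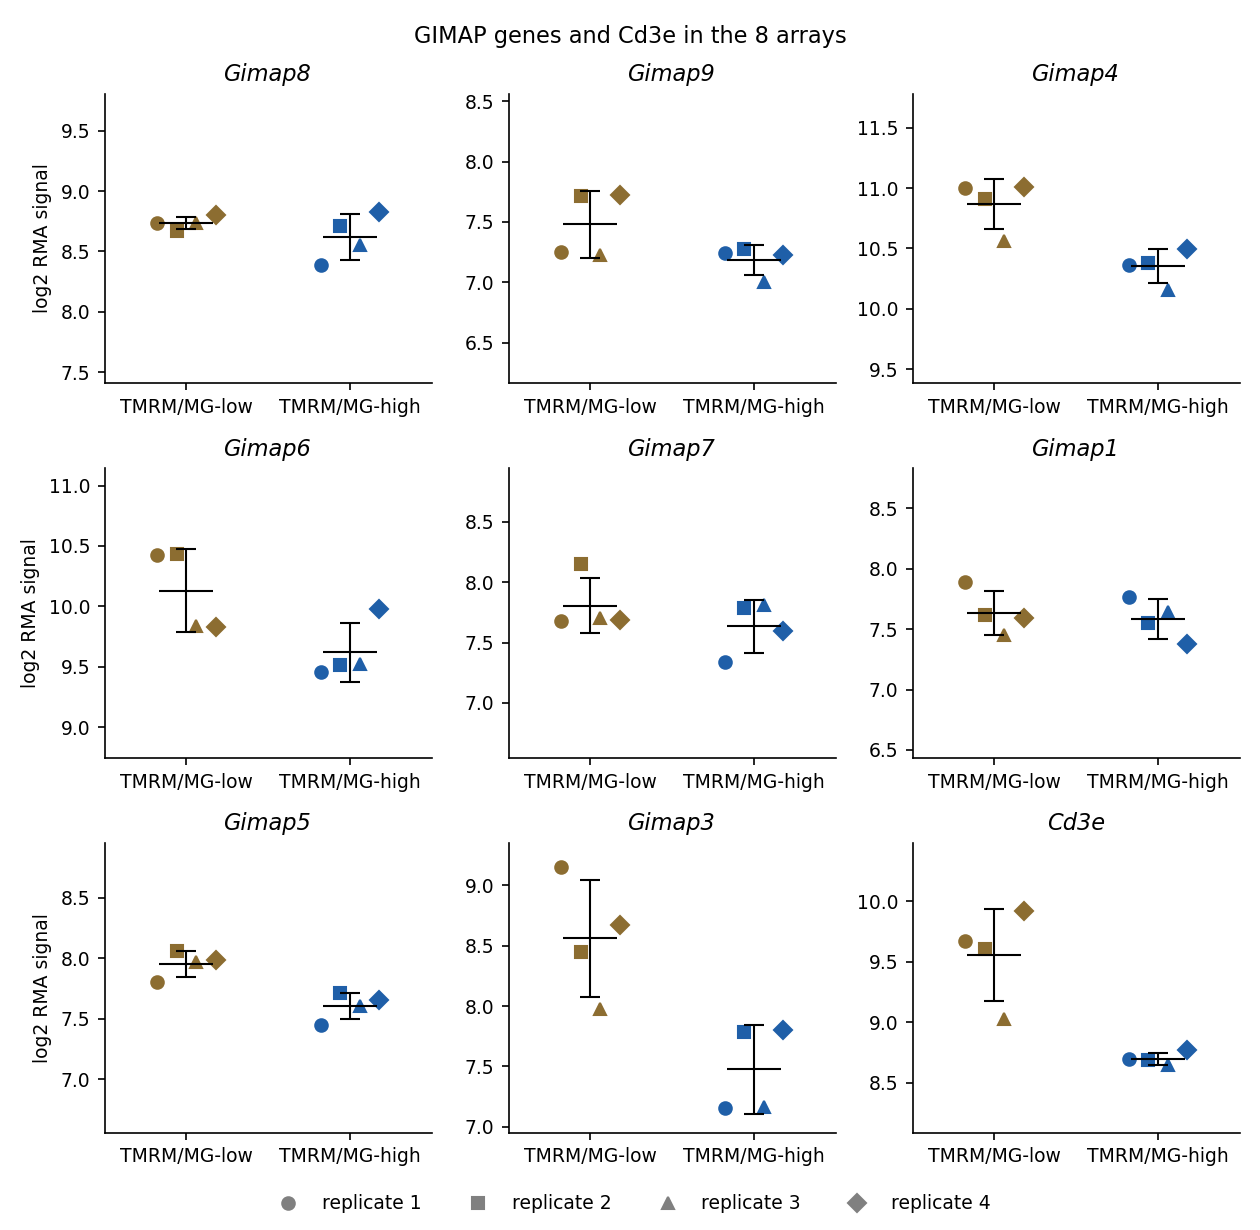
Log2 RMA signal of the 8 GIMAP genes and Cd3e in the 4 TMRM/MG-low (brown) and 4 TMRM/MG-high (blue) arrays; symbols mark replicates 1 to 4, and black lines the mean ± SD. Every panel spans the same log2 range; Gimap3, Gimap4, Gimap5 and Cd3e show no overlap, and the other 5 genes do.

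How far each member stood above background differed. The Gimap4 mean lay above 96.8% of the 5222 negative (intron) control probe sets in the high fraction and 98.1% in the low fraction, and the Gimap6 mean above 92.7% and 96.0%. The Gimap3 mean lay above 83.5% of them in the low and 62.8% in the high fraction, where it was near background. Gimap1, Gimap5, Gimap7 and Gimap9 lay above 57.1% to 73.6% of them in either fraction, so these 4 were near background in both. The 23 background probe sets averaged 6.43 to 6.55 in the low and 6.24 to 6.27 in the high arrays, a difference of -0.25 with no overlap, against -0.35 for Gimap5 and -0.29 for Gimap9. The median of the 5222 negative (intron) controls went the other way, with a difference of 0.096. It ran from 6.72 to 6.81 in the low and from 6.77 to 6.93 in the high arrays. The part of either shift in the values of the dim members was not tested.

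The member counts rested on single arrays. Without high replicate 3 none of the 8 passed, and without high replicate 2, low replicate 2 or low replicate 4 only Gimap3 did. Without low replicate 3 the count was 4, with Gimap6 added. Gimap3 passed in 7 of the 8 omissions, Gimap4 in 3 and Gimap5 in 2. Over all probe sets the count of lower calls moved as well, from 658 to 218 without high replicate 3 and to 793 without low replicate 3. Each of the 8 differences but that of Gimap1 stayed below 0 in every omission (limma fit of the remaining 7 arrays).

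Genes that flank the cluster gave no calls. Of 10 measured flanking genes, 5 on each side, none passed in either direction, and their median difference was -0.0038. At an unadjusted p under 0.05 there was 1, Tmem176a, which was higher (limma adjusted p = 0.101). The share of all probe sets at that level was not taken. Next to Gimap3 lie Tmem176b and Tmem176a, membrane protein genes expressed in dendritic cells, whose differences were 0.32 (SE 0.17) and 0.36 (SE 0.13), opposite in sign to those of the GIMAP genes. On the Gimap8 side, Zfp775 was at 0.08 (SE 0.10) and Repin1 at -0.04 (SE 0.081). Neither the GIMAP genes against the flanks nor Gimap3 against Tmem176b was compared by a test.

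**Figure D2:**
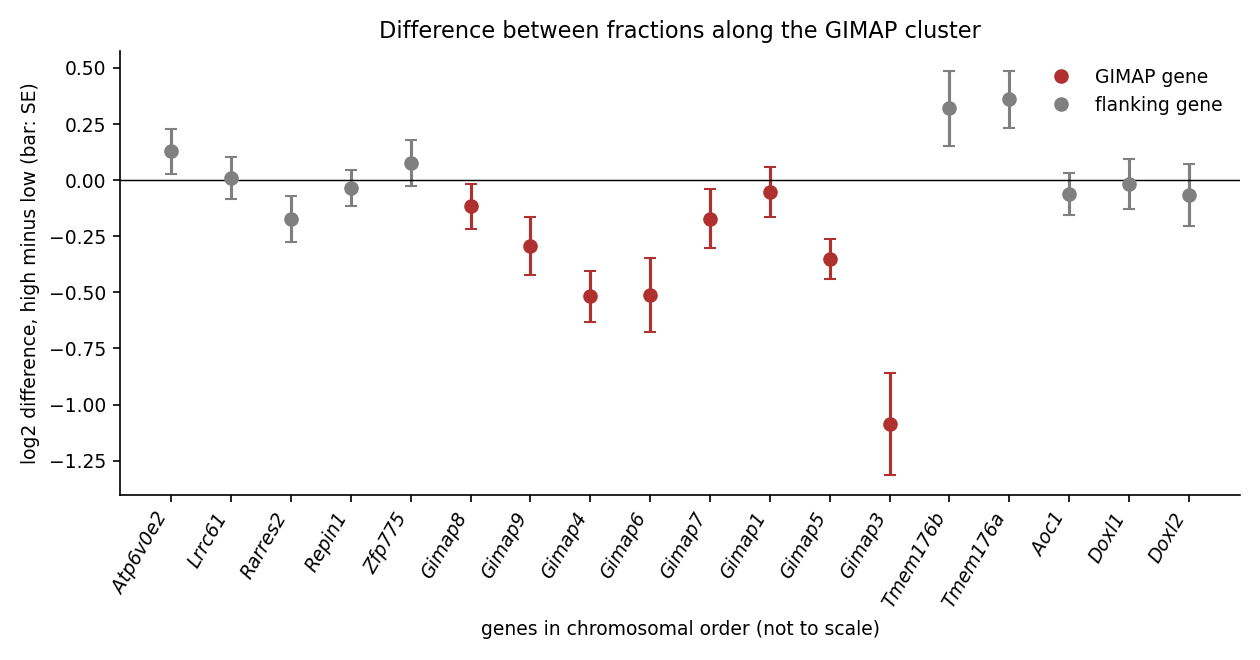
Log2 difference, high minus low, with its moderated SE, for the 8 GIMAP genes (red) and 10 flanking genes (grey) in chromosomal order, not to scale. The GIMAP genes run from -0.05 (Gimap1) to -1.08 (Gimap3), and Tmem176b and Tmem176a beside Gimap3 are above 0.

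Cd3e encodes a chain of the T cell receptor complex and is a defining T cell gene. It was at 9.67, 9.61, 9.03 and 9.92 in the low arrays and at 8.70, 8.68, 8.65 and 8.77 in the high arrays. The high arrays lay within a narrow band below all low arrays. Low replicate 3 was the lowest of the low arrays, as for Gimap1, Gimap3, Gimap4 and Gimap9. The difference was -0.86 (SE 0.15; limma adjusted p = 0.011).

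Whether the GIMAP genes went along with Cd3e was asked within fractions, by fitting every probe set on the fraction and the Cd3e level of the array. This slope does not use the difference that led to the choice of the family. Gimap3 had a slope of 1.01 log2 units per log2 unit of Cd3e (SE 0.40; limma adjusted p = 0.827 over 22205 probe sets), Gimap4 of 0.57 (SE 0.19; adjusted p = 0.823) and Gimap9 of 0.51 (SE 0.24; adjusted p = 0.851). Gimap6 (0.28, SE 0.36), Gimap1 (0.21, SE 0.24) and Gimap8 (0.09, SE 0.22) had smaller slopes. Gimap5 (-0.0094, SE 0.20) and Gimap7 (-0.0003, SE 0.29) had slopes near 0. The slope of Gimap5 was near 0 although its fractions did not overlap.

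No slope passed, of the members or of any other probe set (0% of 22205 by limma). The unadjusted limma p was under 0.05 for 1289 probe sets, 5.805% of those tested, among them 2 members, Gimap3 and Gimap4. Cd3e varied little among the high arrays (SD 0.05, n = 4) and more among the low arrays (SD 0.38, n = 4), so the slopes rest mainly on the low arrays and on low replicate 3. Without that array the slope of Gimap4 was 0.51 (SE 0.51) and that of Gimap3 0.52 (SE 1.09). Gimap6 turned to -1.31 (SE 0.82), Gimap7 to -1.13 (SE 0.71) and Gimap1 to -0.61 (SE 0.60). These slopes were thus poorly determined without it. Gimap4 lay on the same side of its fraction mean as Cd3e in 4 of 4 low and 2 of 4 high arrays. Gimap3 did so in 3 of 4 low and 3 of 4 high arrays, and Gimap6 in 3 of 4 low and 4 of 4 high arrays. The other members did so in 3 to 5 of the 8 arrays. With these 8 arrays a relation to Cd3e did not pass for any member. In simulated data with the spread of these arrays, slopes were planted in randomly drawn probe sets. The same fit recovered 34% of slopes of 1 and 91% of slopes of 2. Gimap3 had a pooled SD of 0.43, against a median of 0.15 over all probe sets, so these shares do not hold for it. The planted slopes also eased the adjustment over all probe sets, and in the measured data no slope passed. A slope the size of that of Gimap3 could be missed.

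**Figure D3:**
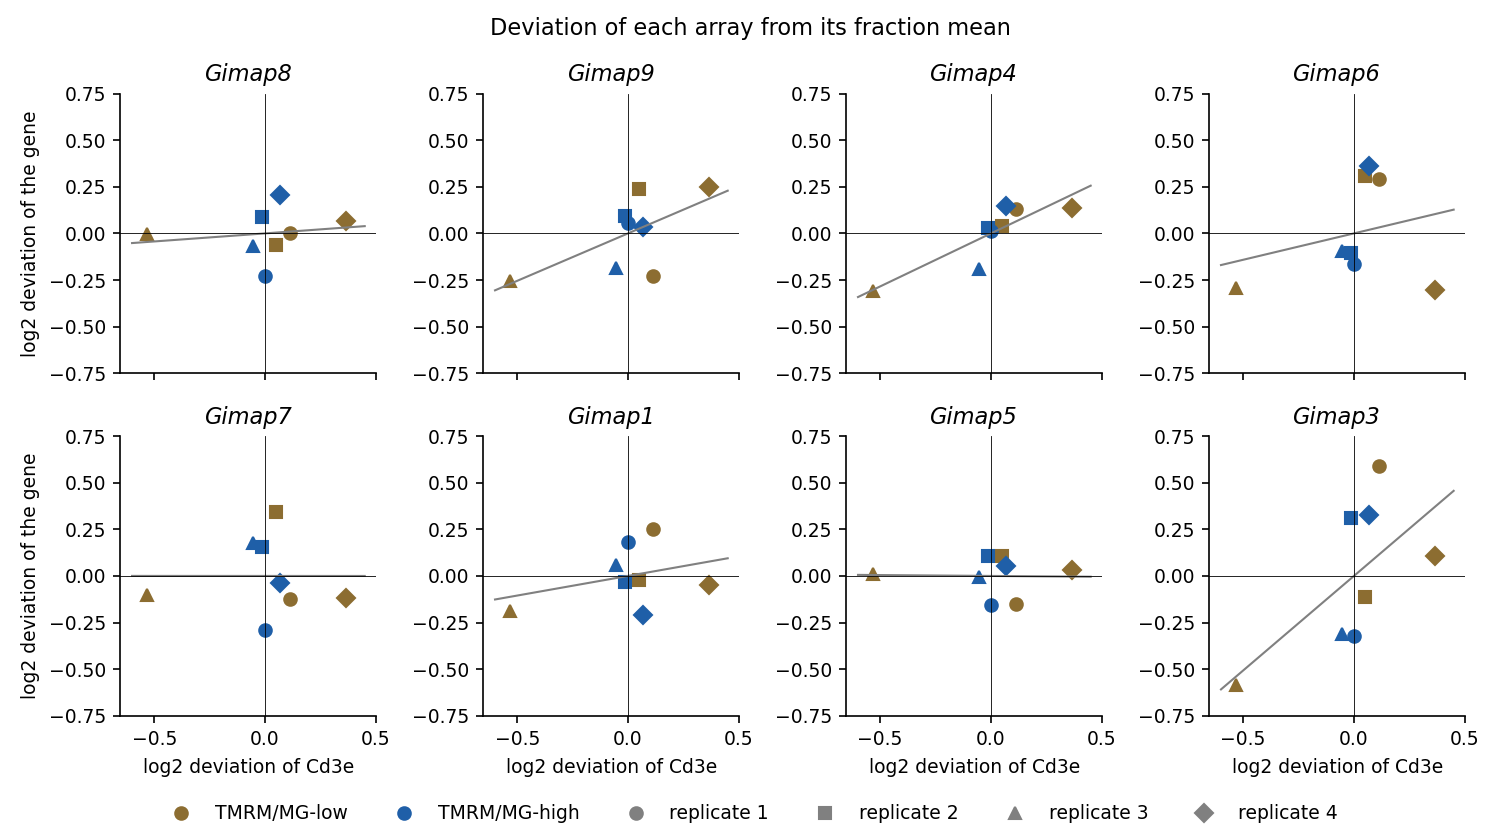
Deviation of each array from the mean of its fraction, for Cd3e (x, log2) and each GIMAP gene (y, log2); brown is TMRM/MG-low, blue TMRM/MG-high, and the grey line has the fitted slope. The fitted slopes run from -0.0094 (Gimap5) to 1.01 (Gimap3) and none passed; the point at the far left is low replicate 3.

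With the Cd3e level as a covariate, the difference between fractions was -0.21 for Gimap3 (SE 0.40), -0.03 for Gimap4 (SE 0.18), -0.36 for Gimap5 (SE 0.19) and -0.27 for Gimap6 (SE 0.35). Gimap7 (-0.17) and Gimap8 (-0.04) also stayed below 0, and Gimap9 (0.14, SE 0.24) and Gimap1 (0.13, SE 0.24) turned above it. No probe set passed in that fit. Cd3e itself separates the fractions, and the SE of Gimap5 went from 0.090 to 0.19, so this fit leaves each difference poorly determined. With the mean poly-A spike-in level as a covariate the values were -1.06 (SE 0.52), -0.31 (SE 0.25), -0.54 (SE 0.19) and -0.26 (SE 0.37), again with none passing, and Gimap1 turned to 0.31 (SE 0.22). The 4 spike-in RNAs added before labelling averaged 7.55 ± 0.28 in the low arrays and 6.32 ± 0.44 in the high ones (SD, 4 arrays each). The 4 controls added at hybridization averaged 12.44 ± 0.16 and 11.80 ± 0.07. The median of the positive (exon) controls went the other way, from 10.21 to 10.37 in the low and from 10.38 to 10.49 in the high arrays. Their part in the GIMAP difference was not tested.

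Markers of other cell types were measured in the same arrays, since GIMAP genes are also expressed by lymphocytes and endothelial cells. The mean level of the 14 cDC1 markers ran from 11.66 to 11.79 in the high and from 11.63 to 11.86 in the low arrays. Xcr1 was at 12.65 and 12.51 and Clec9a at 11.78 and 11.99 in the high and low fraction. The dimmest were Zbtb46, at 8.85 and 9.09, and Itgae, at 9.68 and 9.88. Of 20 measured T cell markers, 8 fell in the high fraction and 0 rose, with a median difference of -0.43. Over all probe sets 2.96% were called lower and 5.28% higher. At an unadjusted limma p under 0.05 there were 16 lower and 0 higher T cell markers. Many other probe sets reached that level: the NK gene Gzma, at an unadjusted limma p of 0.0501, had an adjusted p of 0.197. The share of all probe sets at that level was not taken, so the unadjusted counts are not read further. Their mean level ran from 8.33 to 8.57 in the high and from 8.54 to 9.08 in the low arrays, and only Trat1 was below the negative control median in both fractions. Cd3e, Lat (-0.66, SE 0.14), Cd3d (-0.82, SE 0.17) and Cd3g (-0.76, SE 0.17) led the list. The count was 1 without high replicate 3 and 13 without low replicate 3.

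Of 12 NK cell markers, Il2rb, a cytokine receptor chain shared with T cells, fell (-0.94, SE 0.19) and Klrk1, an activating receptor, rose (0.54, SE 0.13). The median difference was -0.54, and 10 of the 12 had a difference below 0. At an unadjusted limma p under 0.05 there were 7 lower and 1 higher, again with no share over all probe sets beside them. The NK mean level ran from 8.98 to 9.69 in the high and from 9.25 to 10.15 in the low arrays, and no NK marker was below the negative control median in both. With the replicate number as a block 8 NK markers were called lower. The part of T and NK cell RNA in the GIMAP values was not tested.

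The slopes of these genes on Cd3e set the GIMAP slopes in context. Of the 19 T cell markers other than Cd3e, 18 had a positive slope, with a median of 0.58, and of 12 NK markers 11 did, with a median of 1.06. Of the 8 GIMAP genes 6 did, with a median of 0.25, of the 14 cDC1 markers 1 did, with a median of -0.21, and over all probe sets 52.0% did, with a median of 0.01. Positive slopes were also common in 10 of 10 cDC2 (median 0.31), 9 of 11 B cell (0.20), 8 of 9 macrophage (0.18) and 9 of 10 flanking genes (0.16). Endothelial markers had 6 of 9 (0.08) and plasmacytoid genes 7 of 13 (0.10). Genes tied to GIMAP function had 2 of 7 (-0.09), other GTPase genes 7 of 15 (-0.0049) and neutrophil markers 1 of 8 (-0.745). The mean levels of the T cell, NK, cDC2 and endothelial lists were lowest in replicate 3 of each fraction, as were Cd3e, Gimap4 and Gimap9.

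B cell, endothelial and macrophage markers gave another picture. None of 11 B cell markers passed by limma, and 0 had an unadjusted p under 0.05 (median difference -0.04; mean level 9.48 to 9.87 in the high and 9.49 to 9.82 in the low arrays), with Ebf1 at -0.13 and Vpreb3 at 0.12. Of 9 endothelial markers 1 rose, Kdr, a growth factor receptor (0.72, SE 0.15), and Tek, Emcn and Stab2 were below the negative control median; the mean level ran from 7.77 to 7.86 and from 7.75 to 7.86. None of 9 red pulp macrophage markers passed, nor did any at the unadjusted limma p (median difference 0.16), with Vcam1 at 0.21 and C1qa at 0.24. None of 8 neutrophil markers passed, and 2 had an unadjusted limma p under 0.05 (median difference -0.65), with S100a8 at -0.84 and S100a9 at -0.68.

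**Figure D4:**
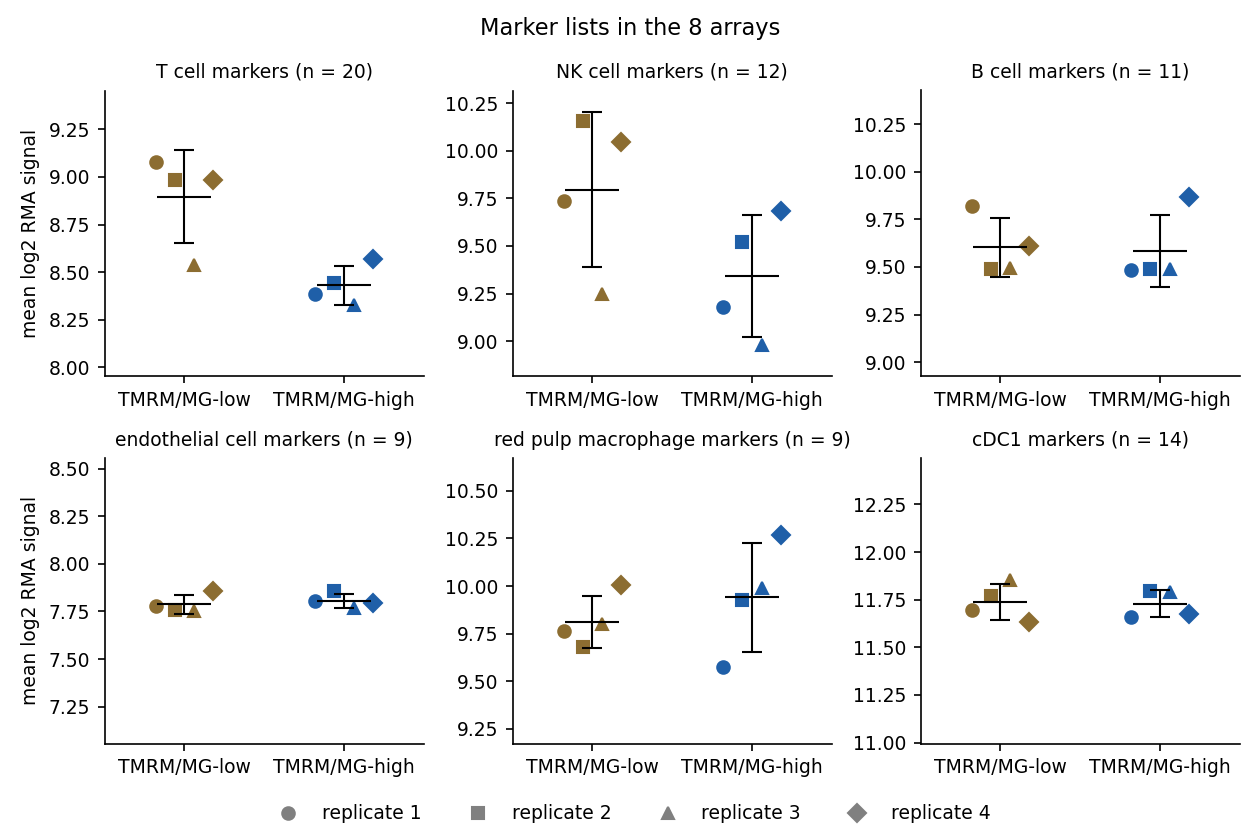
Mean log2 RMA signal of 6 marker lists in the 4 TMRM/MG-low (brown) and 4 TMRM/MG-high (blue) arrays; symbols mark replicates, black lines the mean ± SD, n the genes measured. The T cell list is lower in most high arrays, 8.33 to 8.57 against 8.54 to 9.08, and the B cell, endothelial and cDC1 lists overlap throughout.

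The dendritic cell lists gave 11 rises among 13 plasmacytoid genes (median difference 0.85), led by Klk1 (1.52), Siglech (1.81), Bst2 (0.79) and Cd209d (1.83). Among 14 cDC1 genes there were 0 calls by limma (median -0.07), with Cd8a at 0.31 and Clec9a at -0.21. At an unadjusted limma p under 0.05 there were 4, 3 higher and 1 lower. The share of all probe sets at that level was not taken, so these 4 are not read as a change. Among 10 cDC2 genes Ccr2 rose (0.51), and Tbx21 (-0.88) and Notch2 (-0.33) fell. Tbx21 encodes T-bet, which NK and T cells also express.

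Genes tied to GIMAP function were measured too. Of 7 measured, 1 rose and 0 fell, with a median difference of 0.11. The gene that rose was Gabarapl1, an ATG8-type autophagy gene, at 9.66 to 10.15 in the low and 10.25 to 10.62 in the high arrays (0.49, SE 0.12; limma adjusted p = 0.0327). It lost the call in 6 of the 8 omissions, all but high replicate 1 and low replicate 3. Its relatives Gabarapl2, the reported Gimap6 partner, and Gabarap were at 0.12 (SE 0.089) and 0.06 (SE 0.088). The survival genes Bcl2l1 (0.34, SE 0.11; adjusted p = 0.0807), Mcl1 (0.11, SE 0.082) and Bcl2 (-0.0011, SE 0.15) did not pass, nor did the kinase gene Gsk3b (0.02, SE 0.077).

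Other GTPase genes of immune defence, the interferon-inducible IRG, GBP and Mx families, had 0 rises and 1 fall among 15 measured, with a median difference of -0.09. The fall was Irgm2 (-0.40, SE 0.11; limma adjusted p = 0.0471), whose call held only without low replicate 4 among the omissions.

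Genes with deviations most like the mean of the 8 GIMAP genes within fractions were ranked among 14148 named genes above background. The members did not share 1 pattern. Correlations between pairs of them ran from -0.75 (Gimap1 with Gimap5) to 0.82 (Gimap3 with Gimap4). Their mean leans on members with a wide spread, such as Gimap3 (pooled SD 0.43) and Gimap6 (0.30). The 6 genes closest to that mean by Pearson correlation over the 8 arrays were Adprm, Epp13, Tnfsf10, Paqr5, Kdm4c and Rora, at 0.988 to 0.970. Cd3e ranked 690th, at 0.684. These are the extremes of a ranking over few arrays that may share handling, and are given as a description with no test. Between fractions Tnfsf10, which encodes the death ligand TRAIL, differed by -0.53 (SE 0.15; limma adjusted p = 0.0566) and the nuclear receptor gene Rora by -0.37 (SE 0.21), and neither passed. The other 2 probe sets of Rora were at -0.51 and 0.06. Adprm (-0.07), Epp13 (-0.15), Paqr5 (0.17) and Kdm4c (-0.15) did not pass either.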

How the data were processed

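RNA of sorted splenic cDC1 was measured on 8 Affymetrix whole-transcript arrays, 4 per fraction. The deposited values are log2 signals that, per the submitters' processing notes, the authors made with RMA in Affymetrix Expression Console 1.1; RMA scales the arrays to each other, so differences are relative to other probe sets (array medians of the tested probe sets ran from 8.11 to 8.16). No source used here names the array's genome build. Of 28846 rows, 6640 control probe sets were left out and 22206 were tested, 19572 of them named (all matched to RefSeq, GRCm38.p6, by Entrez ID). Tests were two-sided moderated fits without a replicate block (lmFit, eBayes; limma 3.58.1, R 4.3.3), called at a Benjamini-Hochberg p of 0.05 over all probe sets; SE is the moderated standard error. The Cd3e slope came from a fit on fraction and Cd3e. Where a gene has several probe sets, the one of highest mean was used. The scripts were tested on simulated data. Members and lists were chosen with earlier results of these data known. Named genes are the 8 members, Cd3e, 5 flanking genes a side, the 6 most alike genes, the genes tied to GIMAP function, and up to 4 called genes of each list by smallest p (2 where none was called). Xcr1, Zbtb46, Itgae, Gzma, Trat1, Tek, Emcn and Stab2 were added after their values were seen. Alternatives were another scaling, a filter on dim probe sets, an intensity trend, array weights, covariates, the replicate block, other thresholds and leaving out each array. No label says what a replicate number marks, so p-values measure only how these samples vary, in part perhaps technically. The number of arrays limits the precision. Figures were drawn with matplotlib 3.10.9.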

Additional observations from a re-analysis of the deposited data

Results flagged for a closer look

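Among the 18 groups of 4 arrays examined (8 GIMAP genes and Cd3e in each fraction), 2 had an array far from the others by Dixon's ratio of gap to range, above its 95% critical value for 4 samples. Chance flags about 1 in 20 groups. Gimap6 in high replicate 4 was at 9.98 and the other high arrays between 9.45 and 9.53 (ratio 0.863). Gimap7 in low replicate 2 was at 8.15 and the other low arrays between 7.68 and 7.70 (ratio 0.955).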

How the results depend on the processing

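The count of 3 members called lower was 0 with Cd3e or the spike-in level as a covariate and 0 at a threshold of 0.01, and ran from 0 to 4 over the omissions of 1 array. The median member difference was -0.11 with Cd3e as covariate and -0.38 to -0.26 over the omissions, and it stayed within the spread between replicates in the other alternatives. The count of member slopes passing was 0 in all 17 alternatives. An alternative fitted the slope on the T cell list mean in place of Cd3e. There Gimap3 was at 1.9985 (SE 0.426), Gimap6 at 1.125 (SE 0.418) and Gimap4 at 0.905 (SE 0.2499). Their limma adjusted p was 0.4515, 0.8601 and 0.752. Gimap9 was at 0.537 (SE 0.390), Gimap1 at 0.302 (SE 0.354), Gimap8 at 0.234 (SE 0.315) and Gimap5 at -0.0139 (SE 0.291). These are per log2 unit of that mean, so their sizes are not compared with the slopes on Cd3e. Slopes on Cd3e changed sign for Gimap5 with array weights (0.0099) and the spike-in covariate (0.0323; omissions -0.0736 to 0.0592), for Gimap7 with the T cell list mean in place of Cd3e (0.14) and the spike-in covariate (0.0431; omissions -1.13 to 0.22), for Gimap1 (omissions -0.61 to 0.44) and for Gimap6 (omissions -1.31 to 1.05). Over the omissions the calls ran from 1 to 13 lower T cell markers, 0 to 8 lower and 0 to 1 higher NK markers, 7 to 11 higher plasmacytoid genes, 0 to 2 lower and 0 to 1 higher cDC2 genes, 0 to 2 lower neutrophil markers, and 0 to 1 higher cDC1, endothelial, GIMAP-linked, flanking and other GTPase genes and 0 to 1 lower other GTPase genes. After quantile normalization again 1 neutrophil marker and 1 cDC1 gene were called lower. Same-numbered arrays of the fractions deviated together with correlations of 0.27, 0.05, 0.02 and 0.04 over probe sets, of which not every one is over 0.1, so the number was not used as a pairing; what it marks is not known. With the replicate block the members called stayed at 3, and 8 NK and 2 neutrophil markers were called lower, 1 flanking gene higher and 0 other GTPase genes lower; under the block the slopes of Gimap6 (-0.0697), Gimap7 (0.42) and Gimap8 (-0.17) changed sign, those of Gimap3 (0.42, SE 0.71), Gimap4 (0.19, SE 0.29) and Gimap9 (0.22, SE 0.36) were less than 0.5 times their values without it, and Gimap1 (0.52, SE 0.28) was largest. High replicates 2 and 4 correlated best with low replicate 3 (0.17 and 0.15), and high replicate 3 with low replicate 1 (0.0188 against 0.0152 for its own number). Only high replicate 1 correlated best with its own number. The cause of the changes under the block was not tested. Averaging the probe sets of a gene left the members as they were, each having 1.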
